A study of Homo sapiens with 12 samples.

Results

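The cancer-testis antigen families were taken from the deposited count table by gene symbol, as the entries whose names begin with MAGEA, MAGEB or MAGEC and a digit, CTAG, GAGE, PAGE, XAGE, or SSX and a digit. Of the 43735 genes in the table, 77 matched, after 5 entries with a copy suffix, none of which held a read, were left out. The 77 comprised 67 members of 8 families proper (MAGEA, MAGEB, MAGEC, CTAG, GAGE, PAGE, XAGE and SSX), together with 9 CTAGE entries and SSX2IP, whose symbols also matched and which were counted apart. A member was called detected when any library held more than 3 of its reads, which was the case for 14 of the 77.

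RNA was sequenced from 12 cultures of the human multiple myeloma line MM1 in 4 groups of 3, glucocorticoid-sensitive MM1S and glucocorticoid-resistant MM1R, each left untreated or exposed to 1 µM of withaferin A (WA), a withanolide of the plant Withania somnifera, for 3 h. The replicates were cultures of passage 16, 22 and 23 for MM1S and of passage 4, 6 and 7 for MM1R, with 1 untreated and 1 WA culture at each passage. No passage number occurred in both lines and each resistance state was represented by 1 cell line, so that resistance, passage and other differences between these lines cannot be told apart. The purpose was to compare resistant with sensitive cells and to follow what WA did in each.

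Cancer-testis antigens are proteins normally made in germ cells of the testis and silent in most other adult tissues, which many tumours make again. Most of these families lie on the X chromosome in clusters of near-identical copies, and their promoters are held off in somatic cells largely by DNA methylation at CG dinucleotides. In myeloma they have been studied as targets of T cells and vaccines, and the type I MAGE proteins among them bind RING ubiquitin ligases and change what these ligases act on.

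The libraries held 17625110 to 19368343 counted reads each. The 7 plasma cell markers were detected in every group, with a summed level of 3827 to 5443 CPM (reads scaled to the size of the library) over the 12 libraries. Of the 7 male germ cell markers, TNP1, PRM1 and PRM2 were at 0 in all libraries and DAZL, DDX4 and MAEL did not exceed 4 reads in any, whereas SYCP3 had 842 to 1410 reads. The T cell markers CD3D and CD3G held at most 1 read, with CD3E at 63 to 211, and of the fibroblast markers COL1A2 and COL3A1 were at 0, DCN held at most 1 read and COL1A1 held 9 to 294. The summed fibroblast level moved with the groups, at 0.497 to 1.09 CPM in untreated MM1S, 2.3 to 6.55 in MM1S with WA, 1.52 to 2.34 in untreated MM1R and 5.29 to 17.9 in MM1R with WA. Of the erythroid markers HBB held 63 to 178 reads and the others at most 4. The part of these markers in the results was not tested. Both MM1S cultures of passage 16 stood apart from the other MM1S cultures for some members, and values without them are given beside the results they touch.

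Which members were on differed between the lines. A member was called on in a group when all 3 libraries held more than 3 reads, off when none did, and mixed otherwise. In MM1R 11 members were on in both the untreated and the WA cultures, against 4 in MM1S, and those 4 (MAGEA1, MAGEC3, SSX2IP and CTAGE7P) were on in all 4 groups. SSX1, MAGEA6, MAGEA3 and PAGE5 were on in MM1R and off in MM1S with and without WA. CTAG2, MAGEA10 and MAGEA12 were on in MM1R and mixed in at least 1 MM1S group. The members on in 1 line only were thus 4, and 6 without both MM1S cultures of passage 16. No member was on in MM1S only, and the remaining detected members, MAGEB17, MAGEB18 and PAGE2B, did not exceed 14 reads in any library. The share of all genes on in 1 line only by the same rule was not counted. These counts therefore describe the members and do not set them apart from other genes. In these bulk samples, fewer cells with a transcript and less of it per cell cannot be told apart.

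**Figure D1:**
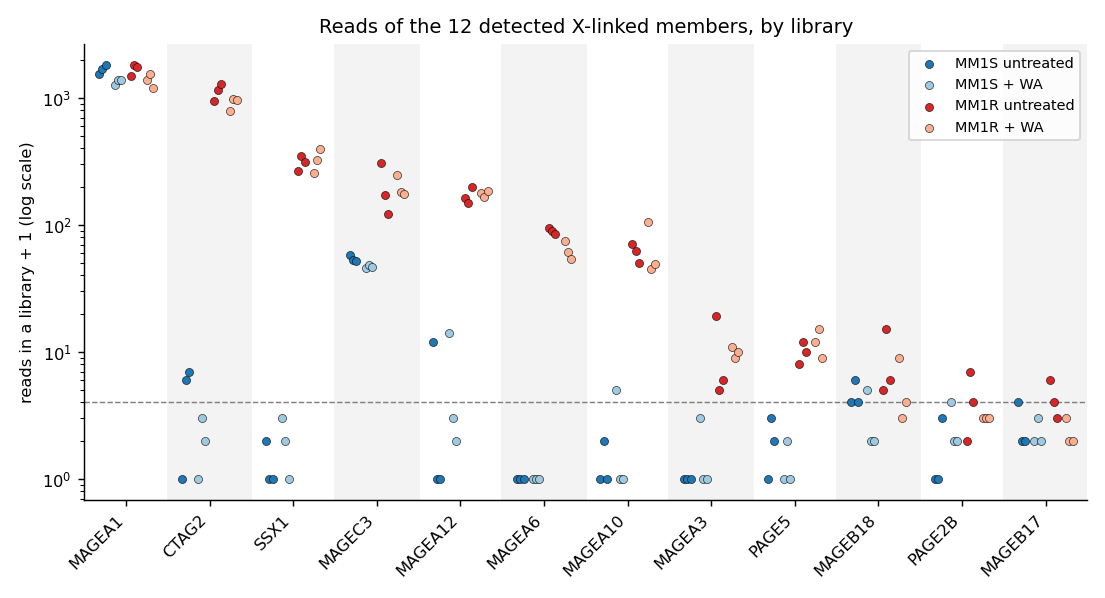
Reads of the 12 detected X-linked members in each of the 12 libraries, plotted as reads + 1 on a log axis, with 3 points per group in the order of passage number. The dashed line marks 3 reads. MAGEA1 sits between 1205 and 1824 reads in all groups, while CTAG2, SSX1, MAGEA12, MAGEA6 and MAGEA10 sit at 44 to 1275 reads in MM1R and at 13 reads or fewer in MM1S.

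The 63 members that were not detected held 0 reads in all libraries in 39 cases and 1 to 3 reads in at least 1 library in 24. How much a missing signal says depended on the member. Exons of 74 members were found by symbol in the GENCODE annotation of GRCh37, and each exonic window of 50 bases, the length of 1 read of a pair, was counted as unique when its sequence occurred at no other place in the genome on either strand. Of the 60 undetected members with exons, 30 had at least 50% unique windows, 6 had between 10% and 50%, and 24 had under 10%, of which 16 had none. CTAG1A and CTAG1B, the pair of identical genes that encode the vaccine target NY-ESO-1, belonged to the last class and held at most 3 reads, so that nothing can be read from their counts. MAGEC1, a myeloma antigen whose exons were nearly all unique, held 0 reads in MM1S and 0 to 3 in MM1R, and MAGEC2 held 0 in all libraries. All 12 GAGE members were undetected, but 7 of them had under 10% unique windows and 1 had at least 50%. The 10 MAGEB members all had at least 50% unique windows, and 8 of them held no more than 2 reads in any library.

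**Figure D2:**
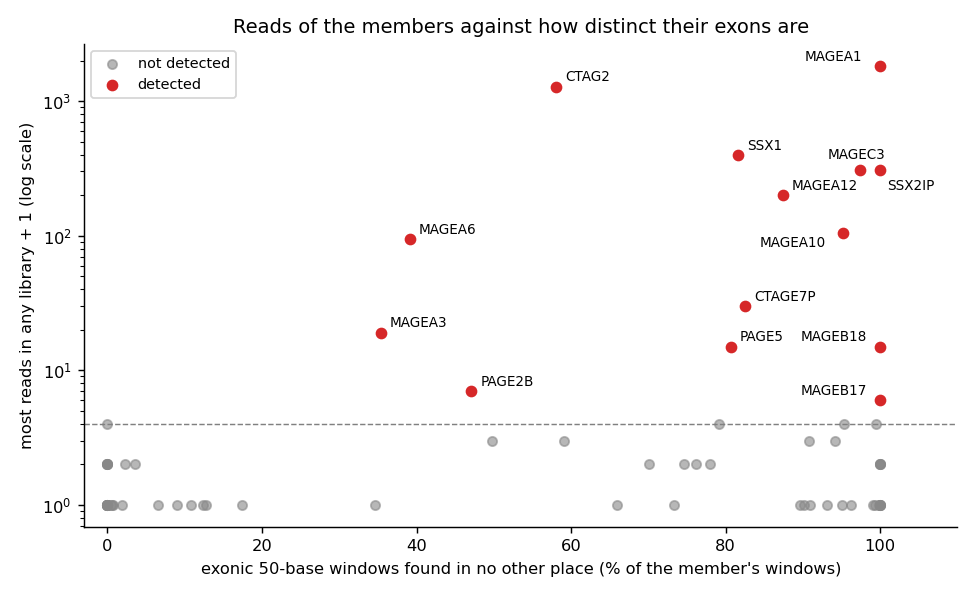
Most reads in any library (plus 1, log axis) against the share of exonic 50-base windows found nowhere else, for the 74 members with GRCh37 exons. Detected members are red and labelled, undetected ones grey, and the dashed line marks 3 reads. No detected member lies below 35.4% unique windows, whereas undetected members range from 0 to 100%.

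MAGEA1 (chrX:152481520-152486116, GRCh37, minus strand), among the first tumour antigens found through the T cells that recognise it, was the most abundant member in MM1S. Untreated MM1S held 1554, 1695 and 1815 reads at passages 16, 22 and 23, and untreated MM1R held 1483, 1824 and 1763 at passages 4, 6 and 7. All 6 libraries overlapped, and the difference of MM1R from MM1S was 0.12 on the log2 scale (SE 0.12, adjusted p = 0.59). Adjusted p-values here and below come from the quasi-likelihood test of edgeR, adjusted by Benjamini-Hochberg over all 14085 genes tested. With MAGEC3 it was the member of the families proper that was on in every library of both lines.

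MAGEA6 (chrX:151867214-151870825, plus strand) and MAGEA3 (chrX:151934652-151938240, minus strand) encode near-identical partners of the ubiquitin ligase TRIM28. MAGEA6 held 0 reads in all 6 MM1S libraries, 93, 88 and 84 in untreated MM1R and 73, 60 and 53 in MM1R with WA. The groups did not overlap, and against a floor of 3 reads over the group the level was at least 95.1-fold higher in untreated MM1R than in untreated MM1S, and at least 65-fold higher in the WA cultures. The adjusted p was 4.7e-06 without and 1.1e-05 with WA (edgeR). MAGEA3 held 18, 4 and 5 reads in untreated MM1R and 10, 8 and 9 with WA, against 0 in untreated MM1S and 2, 0 and 0 with WA, and was too low to be tested. MAGEA3 shared 44.9% of its windows with MAGEA6, and MAGEA6 55.8% with MAGEA3, so that the split of reads between them is uncertain.

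MAGEA12 (chrX:151899293-151903206, minus strand), a close relative between these copies, held 162, 148 and 198 reads in untreated MM1R and 176, 166 and 183 with WA. In MM1S it held 11 and 13 reads in the untreated and the WA culture of passage 16, 0 in both other untreated cultures, and 2 and 1 in the WA cultures of passages 22 and 23. The MM1R libraries were all higher than the MM1S libraries, by 5.59 on the log2 scale without WA (SE 0.71, adjusted p = 0.00023, edgeR) and 5.08 with it (SE 0.67, adjusted p = 0.00029, edgeR). Passage 16 carried most of the MM1S signal. Without it MAGEA12 was at least 122-fold higher in untreated MM1R, and in the WA cultures the ratio of reads was 122 with a 95% counting interval of 41.7 to 596.

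MAGEA10 (chrX:151301782-151307050, minus strand) lies apart from these copies in the same region. Its reads were 70, 61 and 49 in untreated MM1R and 104, 44 and 48 with WA, against 0, 1 and 0 in untreated MM1S and 4, 0 and 0 with WA. The ratio of reads between untreated MM1R and MM1S was 194 (95% counting interval 34.3 to 7697, adjusted p = 9.2e-05, edgeR). With WA the fitted difference was 5.54 on the log2 scale (SE 0.67, adjusted p = 0.00015, edgeR). The 4 MM1S reads under WA all came from passage 16, without which MAGEA10 was at least 45.7-fold higher in MM1R. In untreated cells the ratio without that passage was 130 (95% counting interval 23.1 to 5169).

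CTAG2 (chrX:153880246-153881853, minus strand) encodes LAGE-1, the relative of NY-ESO-1, and was the marker taken for these families. It held 944, 1156 and 1275 reads in untreated MM1R and 787, 976 and 953 with WA. In MM1S it held 0, 5 and 6 reads untreated and 0, 2 and 1 with WA, with both zeros at passage 16. Every MM1R library was far above every MM1S library. The difference was 8.33 on the log2 scale in untreated cells (SE 0.38, adjusted p = 1.6e-08, edgeR), and with WA the ratio of reads was 949 (95% counting interval 324 to 4605, adjusted p = 1.4e-08, edgeR). Without both MM1S cultures of passage 16 the fitted differences were 7.77 untreated (SE 0.32, adjusted p = 3.1e-09, edgeR) and 9.20 with WA (SE 0.38, adjusted p = 3.5e-09, edgeR). CTAG2 shared 41.9% of its windows with CTAG1B, and the other 58.1% were unique.

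SSX1 (chrX:48114827-48126879, plus strand), a transcriptional repressor known from the fusion gene of synovial sarcoma, was the only SSX member above 3 reads. It held 264, 346 and 314 reads in untreated MM1R and 255, 326 and 397 with WA, against 1, 0 and 0 in untreated MM1S and 2, 1 and 0 with WA. The ratio of reads was 995 in untreated cells (95% counting interval 178 to 39339, adjusted p = 6.9e-08, edgeR) and 342 with WA (117 to 1660, adjusted p = 9e-08, edgeR). Of these MM1S reads the 1 untreated and 2 of the 3 with WA came from passage 16. Without that passage SSX1 was at least 223-fold higher in untreated MM1R, and with WA the ratio was 684 (123 to 27057). Of its windows 81.6% were unique.

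MAGEC3 (chrX:140926102-140985618, plus strand) was on in both lines and graded rather than switched. It held 57, 52 and 51 reads in untreated MM1S, 45, 47 and 46 with WA, 305, 170 and 121 in untreated MM1R and 248, 182 and 174 with WA. Every MM1R library was above every MM1S library, and passage 4 was the highest of MM1R in both treatments. The difference was 1.98 on the log2 scale (SE 0.26, adjusted p = 0.00029, edgeR) in untreated cells and 2.19 with WA (SE 0.26, adjusted p = 0.00014, edgeR).

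PAGE5 (chrX:55246779-55250541, plus strand), a short gene of the PAGE family, held 7, 11 and 9 reads in untreated MM1R and 11, 14 and 8 with WA, and no more than 2 in any MM1S library. The ratio of reads was 9.69 in untreated cells (95% counting interval 2.98 to 49.9), which missed the limit at an adjusted p of 0.012 (edgeR), and 34.6 with WA (5.79 to 1407), which passed it at 0.0022. It crossed the limit in untreated cells without the WA culture of MM1S passage 16 (0.0098), and missed it in WA cells without the WA culture of MM1S passage 23 (0.015) or of MM1R passage 6 (0.012). PAGE2B (at most 6 reads), MAGEB17 (at most 5) and MAGEB18 (at most 14) were too low to be tested.

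In all, 10 members passed the filter on low counts, which keeps a gene that is high in only 1 group. A gene was called when its adjusted p was under 0.01 and its log2 difference at least 1 in size, and 6 of the 10 were higher in untreated MM1R and 0 were lower, beside 1.48% of all tested genes called higher and 2.97% called in either direction. With WA 7 of the 10 were higher and 0 lower, beside 1.63% of all genes called higher and 3.04% called in either direction. Of the 10, 6 passed the filter only through their reads in MM1R and so had to be higher there, and nothing is read from their number. The other 4 were on in all 4 groups, and their median log2 difference was -0.05 without and 0.12 with WA, against 0.01 and -0.01 over all genes. With the requirement of at least 10 reads in every library, 4 members could be tested and 1 of them, MAGEC3, was called. Of the 11805 genes tested under that requirement, 234 were called without WA and 222 with it. SSX2IP on chromosome 1, which encodes a centrosome protein, and CTAGE7P on chromosome 10 were on throughout, at 152 to 308 and 11 to 29 reads, and differed between untreated lines by -0.26 (SE 0.19) and -0.21 (SE 0.41) on the log2 scale (adjusted p = 0.41 and 0.79, edgeR). Both lie outside the families proper, and neither was called.

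Per kilobase of exon, the level in untreated MM1R was highest for CTAG2 at 62.7 ± 12.7 CPM (SD, n = 3), followed by MAGEA1 at 54.6 ± 8.22, and the ranges of these overlapped. SSX1 followed at 13.9 ± 2.33, below both in every library. MAGEA12 at 4.77 ± 0.963 and MAGEC3 at 3.89 ± 1.66 overlapped, and MAGEA6 at 2.61 ± 0.0195 lay within the range of MAGEC3. SSX2IP, outside the families proper, stood at 1.33 ± 0.0783, below MAGEA6 in every library. MAGEA10 stood at 1.13 ± 0.137, below both in every library. PAGE5 stood at 0.662 ± 0.162, and CTAGE7P (0.378), PAGE2B (0.343), MAGEB18 (0.233), MAGEA3 (0.218) and MAGEB17 (0.112) had lower means. In untreated MM1S the corresponding level was 50.3 CPM per kilobase for MAGEA1 and 0.986 for MAGEC3. These levels were divided by the whole exon length. Unique windows made up 58.1% for CTAG2, 39.1% for MAGEA6 and 35.4% for MAGEA3, against 100% for MAGEA1. The place of members with shared sequence in this order is therefore uncertain.

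Promoter sequences were looked up in RefSeq (GRCh38.p14) for the members that differed together. Windows were found for 60 of the 77 members and for 9 of the 14 detected ones, the others being CTAG2, MAGEA1, MAGEA10, MAGEB17 and CTAGE7P. The 250 bases before the start are shown for SSX1 (chrX:48255142-48255391, plus strand), MAGEA6 (chrX:152769690-152769939, minus strand), MAGEC3 (chrX:141894416-141894665, plus strand) and PAGE5 (chrX:55220096-55220345, plus strand), with CG dinucleotides, the sites of DNA methylation, in capitals. The last line is the 35-base gap (chrX:152733722-152733756, plus strand) between the starts of CSAG1 and MAGEA12, which are read in opposite directions.
SSX1: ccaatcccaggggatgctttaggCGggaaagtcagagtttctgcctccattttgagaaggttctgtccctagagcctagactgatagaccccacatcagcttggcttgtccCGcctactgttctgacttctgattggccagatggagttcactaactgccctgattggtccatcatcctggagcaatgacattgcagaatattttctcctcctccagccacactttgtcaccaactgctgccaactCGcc
MAGEA6: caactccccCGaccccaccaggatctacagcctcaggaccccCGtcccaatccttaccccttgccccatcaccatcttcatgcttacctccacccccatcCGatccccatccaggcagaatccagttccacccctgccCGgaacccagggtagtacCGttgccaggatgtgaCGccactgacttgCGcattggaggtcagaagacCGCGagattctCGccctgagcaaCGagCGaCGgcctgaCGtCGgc
MAGEC3: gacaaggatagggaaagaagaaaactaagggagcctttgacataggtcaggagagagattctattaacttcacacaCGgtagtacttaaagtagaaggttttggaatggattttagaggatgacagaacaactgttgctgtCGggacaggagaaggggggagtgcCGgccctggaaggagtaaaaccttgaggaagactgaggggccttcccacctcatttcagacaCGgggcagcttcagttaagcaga
PAGE5: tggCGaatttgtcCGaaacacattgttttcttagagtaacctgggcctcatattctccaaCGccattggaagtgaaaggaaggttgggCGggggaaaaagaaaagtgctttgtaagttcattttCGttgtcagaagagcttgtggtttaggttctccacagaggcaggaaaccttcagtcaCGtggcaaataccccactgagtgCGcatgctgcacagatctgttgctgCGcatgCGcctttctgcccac
MAGEA12-CSAG1 gap: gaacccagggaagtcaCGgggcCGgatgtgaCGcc

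The printed windows differed in their number of CG dinucleotides. The window of MAGEA6 held 15 CG dinucleotides, that of PAGE5 9, that of MAGEC3 4 and that of SSX1 3, beside a median of 11 over 35116 promoter windows. The windows of MAGEA3 and MAGEA6 were identical over all 300 bases given, 250 before and the rest after the start, although MAGEA6 held more reads than MAGEA3 in every MM1R library. The ETS core CCGGAA, searched on both strands, was present in the windows of MAGEA3 and MAGEA6 and in 14.5% of all windows. The SP1 box GGGCGG was present in the windows of 4 of the 9 detected members (PAGE5, MAGEB18, PAGE2B and SSX2IP) and in 42.6% of all. The heat shock element of heat shock factors, searched as its consensus on both strands, was present in 0.441% of all windows and in none of the 9 detected members. None of the printed windows held more than 1 of these matches, so that no matches overlapped.

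The position of the called members was examined through their nearest tested neighbours in RefSeq order, with distances on GRCh38.p14. On that build the order and strands of MAGEA3, MAGEA12 and MAGEA6 are the reverse of those given above for GRCh37. CSAG1, a cancer-testis gene that starts head to head with MAGEA12, held 191, 212 and 224 reads in untreated MM1R, against 18 in untreated MM1S of passage 16 and 0 and 1 at the other passages, and was higher in MM1R by 5.12 on the log2 scale (SE 0.74, adjusted p = 0.00056, edgeR). Without both MM1S cultures of passage 16 the ratio of its reads was 453 (95% counting interval 81.1 to 17937). LOC105373387, 0.156 kb from CTAG2, held 17 to 27 reads in MM1R. GABRA3, 27.7 kb from MAGEA10, held 10 to 21, and both were at 0 in every MM1S library. The neighbours on the other side of CTAG2 and beyond MAGEA6 and MAGEA12, IKBKG and CETN2, differed by 0.14 and 0.04 on the log2 scale (adjusted p = 0.44 and 0.88, edgeR). IKBKG lay 86.9 kb from CTAG2, and CETN2 lay 57.3 kb from MAGEA6 and 89.3 kb from MAGEA12. LOC105373367, 595 kb away on the other side of MAGEA10, held 41 to 58 reads in MM1R and 0 to 5 in MM1S. Like LOC105373387, GABRA3 and CSAG1, it passed the filter on low counts only through MM1R and so had to be higher there. Around SSX1, ZNF630 at 184 kb was lower in MM1R by a log2 value of -2.15 (adjusted p = 0.0021, edgeR) and SLC38A5 at 191 kb higher by 1.98 (adjusted p = 4.5e-06, edgeR). The neighbours of MAGEC3 (LDOC1 at 661 kb and FMR1 at 6014 kb), PAGE5 (APEX2 at 211 kb and MAGEH1 at 228 kb) and MAGEA1 (ZNF185 at 206 kb and ZNF275 at 150 kb) were not called. Among the 453 tested genes of the X chromosome that were not members, 18 (3.97%) were called higher in untreated MM1R, beside 1.48% of all tested genes. On the X chromosome 6 genes were called lower. The 18 include CSAG1, GABRA3, LOC105373387 and LOC105373367, which had to be higher.

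WA changed no member from on to off or from off to on in either line. None of the 10 tested members was called in MM1R, beside 14% of all genes, and their median log2 change was -0.04, against 0.01 over all genes. In MM1S only the 4 members on in that line held enough reads for a test, and none of the 4 was called, beside 10.5% of all genes. Their median change was -0.19, and with the MM1S libraries fitted alone none was called either, beside 8.46%. The other 6 held 0 to 16 reads per MM1S group, where no WA effect could be read. At an unadjusted p under 0.05 there was 1 member in MM1R (MAGEA1) and 0 in MM1S, and DESeq2 called 0 in each line. With passage as a replicate block in edgeR there were 4 such members in MM1R (MAGEA1, CTAG2, MAGEA6 and SSX2IP) and 2 in MM1S (MAGEA1 and CTAG2), none of them called. Of the 14085 genes tested, that fit called 4094 in MM1R and 3399 in MM1S at an adjusted p under 0.05. The share of all genes at the unadjusted limit was not counted, so nothing is read from these numbers. CTAG2 in MM1S rested on 11 untreated and 3 WA reads. In MM1R the untreated and WA libraries overlapped for CTAG2, SSX1, MAGEC3, MAGEA12, MAGEA10 and PAGE5, whose log2 changes with WA lay between -0.27 (SE 0.22, CTAG2) and 0.32 (SE 0.48, PAGE5). A change of state touched members of few reads only. MAGEB18 went from on to mixed in MM1R, MAGEB17 and PAGE2B from mixed to off, and in MM1S CTAG2 went from mixed to off and MAGEA10 from off to mixed.

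MAGEA1 and MAGEA6 came closest to a change. MAGEA1 held 1271, 1375 and 1382 reads in MM1S with WA and 1379, 1537 and 1205 in MM1R with WA, below the untreated culture of the same passage in all 6 pairs. Its log2 change was -0.26 in MM1R (SE 0.12, adjusted p = 0.17, edgeR) and -0.25 in MM1S (SE 0.12, adjusted p = 0.23, edgeR). With passage as a replicate block the adjusted p in MM1R was 0.053 by edgeR, where 29.1% of all genes were called, and 0.048 by DESeq2, where 24.1% were. Without untreated MM1R of passage 4 the change was -0.39 (SE 0.11, adjusted p = 0.037, edgeR). MAGEA6 was lower with WA in all 3 MM1R pairs and its libraries did not overlap, at -0.47 on the log2 scale (SE 0.24, adjusted p = 0.23, edgeR), as was CTAG2 in all 3 pairs at -0.27 (SE 0.22, adjusted p = 0.47, edgeR) and SSX2IP at -0.32 (SE 0.19, adjusted p = 0.31, edgeR). With the block their adjusted p was 0.095, 0.058 and 0.091 (edgeR). The effect of WA on MAGEA1 differed between the lines by -0.02 (SE 0.17, adjusted p = 1, edgeR), and none of the 4 members on in both lines was called for a difference between lines, beside 0% of all genes. Of the members also read in MM1S, the change of MAGEC3 was 0.08 in MM1R (SE 0.24) and -0.13 in MM1S (SE 0.28).

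**Figure D3:**
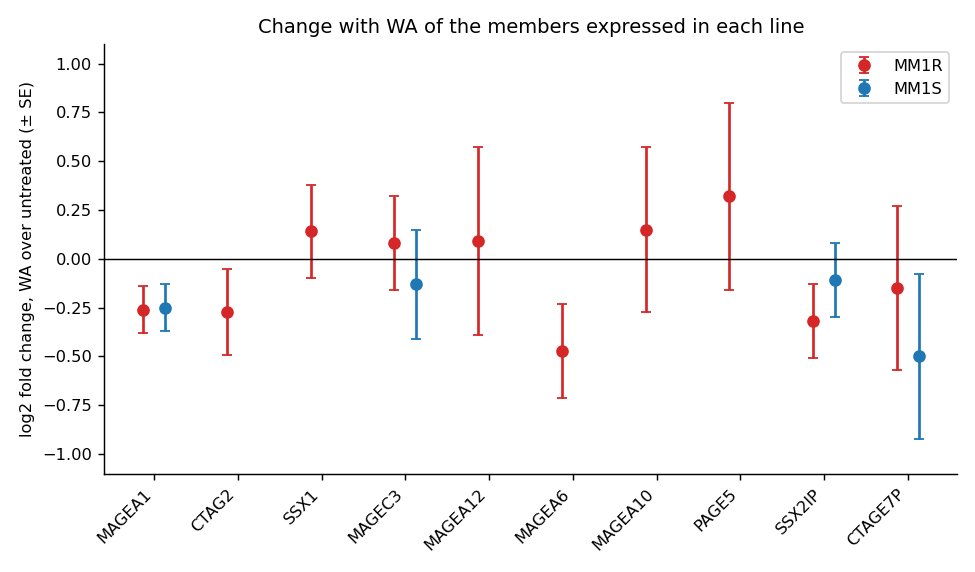
Log2 fold change of WA over untreated cells with its standard error (edgeR, 3 libraries per group) for the 10 tested members in MM1R (red) and for the 4 members on in MM1S (blue). All values lie between -0.50 and 0.32, and none was called at an adjusted p of 0.05.

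Other cancer-testis genes and the machinery that reads or silences them were followed in lists outside the rule. Of 46 other X-linked cancer-testis genes in the table, 5 were detected and 2 tested. Of these 2, 1 (CSAG1) was called between the untreated lines, beside 2.97% of all genes called in either direction. CSAG1 passed the filter on low counts only through MM1R and so had to be higher there. Nothing is read from this share. TKTL1, a transketolase-like gene, was the other one tested, at 3.10 on the log2 scale (SE 1.24, adjusted p = 0.13, edgeR). Passage 16 decided this value, with 573 of the TKTL1 reads of untreated MM1S. Without both MM1S cultures of that passage it was 7.28 (SE 0.30, adjusted p = 3.5e-09, edgeR), with 22 reads in untreated MM1S against 4755 in MM1R. Of 54 autosomal cancer-testis genes, 22 were tested and 1 (4.55%) was called between the untreated lines, beside 2.97% of all genes called in either direction. It was the RNA-binding protein gene IGF2BP3, lower in MM1R by a log2 value of -5.76 (SE 0.83, adjusted p = 0.00056, edgeR). IGF2BP3 passed the filter on low counts only through MM1S and so had to be lower in MM1R. The median over the 22 was -0.31. The 5 tested type II MAGE genes, which are widely expressed outside the testis, included none that was called between the lines. Of all genes, 2.97% were called there without WA and 3.04% with it. With WA 2 of the 5 were lower in MM1R and 1 in MM1S, beside 14% and 10.5% of all genes called in either direction. Among them, MAGEF1 was lower in MM1S by a log2 value of -1.12 (SE 0.16, adjusted p = 0.0006, edgeR) and in MM1R by -0.75 (SE 0.16, adjusted p = 0.0074, edgeR). MAGED1 was lower in MM1R by -0.40 (SE 0.11, adjusted p = 0.031, edgeR). In MM1S it was at -0.35 (SE 0.11, adjusted p = 0.06, edgeR), short of the limit.

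Among 9 tested ubiquitin ligase partners of MAGE proteins, 1 was called between the untreated lines, beside 2.97% of all genes called in either direction. It was LNX1, lower in MM1R by a log2 value of -3.15 (SE 0.45, adjusted p = 0.00056, edgeR). TRIM28, the ligase that MAGEA3 and MAGEA6 bind, differed by 0.05 (SE 0.13, adjusted p = 0.84, edgeR). With WA 1 of the 9 was called in MM1R, DCAF12 at -0.42 (SE 0.11, adjusted p = 0.02, edgeR), and 0 in MM1S. DCAF12 in MM1S was at -0.32 (SE 0.11, adjusted p = 0.078, edgeR). Of all genes, 14% were called in MM1R and 10.5% in MM1S in either direction. Of 10 tested genes of the DNA methylation machinery, none was called between the untreated lines by both limits, beside 2.97% of all genes. DNMT3B, a de novo DNA methyltransferase, was at -0.89 (SE 0.17, adjusted p = 0.0034, edgeR), short of the fold limit. With WA, 2 of the 10 were higher and 2 lower in MM1R, and 1 was higher and 3 lower in MM1S, beside 14% and 10.5% of all genes called in either direction. The maintenance methyltransferase DNMT1 was lower with WA in both lines, by -0.61 in MM1R (SE 0.12, adjusted p = 0.0041, edgeR) and -0.59 in MM1S (SE 0.12, adjusted p = 0.0063, edgeR), and its recruiter UHRF1 by -0.96 (adjusted p = 0.007, edgeR) and -0.67 (adjusted p = 0.048, edgeR). DNMT3B was higher with WA in both, by 0.55 and 0.56 (adjusted p = 0.041 and 0.039, edgeR). TET2, which oxidises methylated cytosine, was higher in MM1R by 0.64 (SE 0.18, adjusted p = 0.032, edgeR). In MM1S it was at 0.55 (SE 0.18, adjusted p = 0.066, edgeR), short of the limit. HELLS, a chromatin remodeller needed for DNA methylation, was lower in MM1S by -0.37 (SE 0.11, adjusted p = 0.04, edgeR). In MM1R it was at -0.32 (SE 0.11, adjusted p = 0.061, edgeR). Of 12 tested genes of histone silencing, none was called between the untreated lines, beside 2.97% of all genes. With WA 2 (SETDB1 and KDM1A) were lower in MM1R and 1 (SIN3A) in MM1S, beside 14% and 10.5% of all genes called in either direction. Uncalled changes in the other line were -0.31 (SETDB1) and -0.24 (KDM1A) in MM1S and -0.40 (SIN3A) in MM1R. For a difference between lines in the WA effect, 0% of all genes were called.

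Passage 16 of MM1S differed from passages 22 and 23 at some members and not at others. Relative to the pooled MM1R libraries, MAGEA12 stood at 6.62% in its 2 cultures and at 0.408% in the other 4, and CSAG1 at 7.61% and 0.442%. MAGEA10 stood at 3.03% (4 reads) and 0.374% (1 read). CTAG2 went the other way, with 0 reads at passage 16, which allows up to 0.14% of the MM1R level for counting error, and 0.323% at passages 22 and 23. MAGEA6 was at 0 reads at all 3 passages and MAGEC3 was alike at 24.2% and 23%. Without both cultures of passage 16, which was chosen after seeing the data, 6 of 11 tested members were called between untreated lines and 7 with WA. Of all 14271 genes tested there, 755 and 817 were called. Nothing is read from the member counts, since members that passed the filter only through MM1R had to be higher there.

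**Figure D4:**
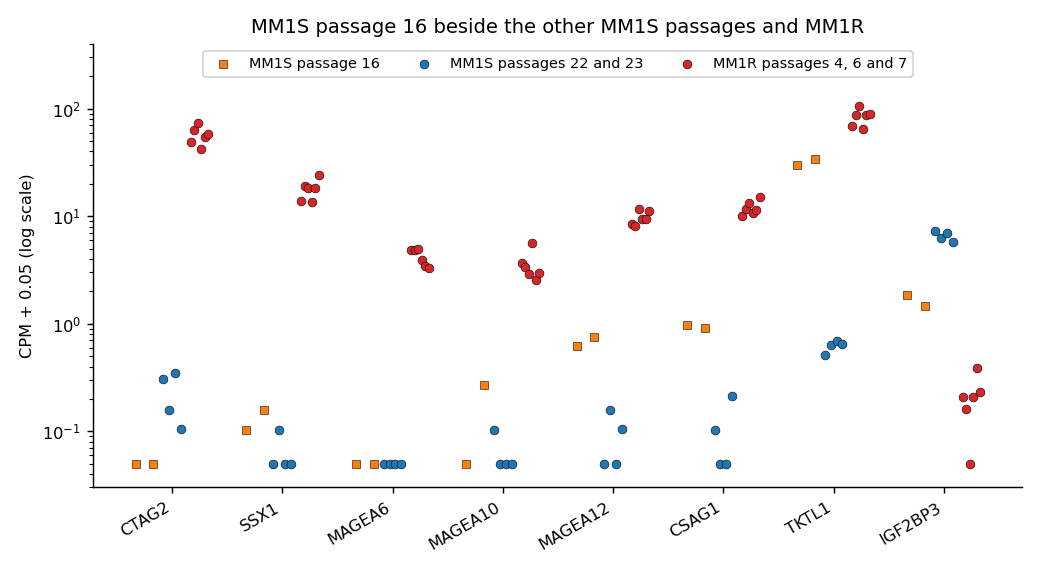
Level in CPM (plus 0.05, log axis) of 5 members and 3 other cancer-testis genes in the 2 MM1S libraries of passage 16 (orange squares), the 4 other MM1S libraries (blue) and the 6 MM1R libraries (red). At passage 16, MAGEA12, CSAG1 and TKTL1 lie between the other MM1S libraries and MM1R, CTAG2 and MAGEA6 lie at 0, and IGF2BP3 lies below the other MM1S libraries.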

How the data were processed

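Cell line, treatment and passage were taken from the sample labels. The authors checked paired-end reads with FastQC (0.11.5), mapped them to hg19 with STAR (2.7.3a) and deposited raw counts of reads per gene, which were used as deposited. The annotation and strand setting of the counting are not given in the sources used here, so that overlapping and antisense genes cannot be told apart. A deposited table of normalized values was not used.

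Low counts were removed with filterByExpr (4 groups, minimum count 10), and the 14085 genes left were scaled with TMM and tested in a joint fit of the 12 libraries by the quasi-likelihood test of edgeR 4.0.16 (R 4.3.3), adjusted by Benjamini-Hochberg. Calls between lines needed an adjusted p under 0.01 and a log2 difference of at least 1 in size, and calls for WA an adjusted p under 0.05. CPM was computed with TMM. Ratios and floors used reads pooled over a group, scaled by TMM library sizes, with 95% exact binomial intervals. Reads carried no molecular identifiers, so that intervals and floors cover counting error only. Within-pair changes used a pseudocount of 0.5 CPM.

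Members and gene lists were chosen with earlier results of these data known. Values in every library are given for called members, for those on in 1 line only and for the highest of each family, and up to 5 called genes per other list are named. GENCODE coordinates of GRCh37 were matched by symbol. Passage numbers paired the cultures, since deviations from the group mean correlated within all pairs (0.39, 0.178 and 0.216 for MM1R passages 4, 6 and 7, and 0.713, 0.253 and 0.44 for MM1S passages 16, 22 and 23). Between MM1S passages 22 and 23 the correlations across numbers were 0.309 and 0.366, above that of the passage 22 pair. Replicates were separate cultures by passage, and no library was a repeat of another. DESeq2 (1.42.0), other scalings, filters and limits, the replicate block, merged copy entries and each library left out were the alternatives.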

Additional observations from a re-analysis of the deposited data

How the results depend on the processing

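Calls between the lines rested on which members could be tested. The 6 members called between untreated lines became 1 where every library had to hold 10 reads or more, which left 4 members tested, and 6 to 8 with a library left out. The 7 called with WA became 1 under the same filter and 6 to 7 with a library left out. Neither count moved past 1.5 times under any other alternative, including without both MM1S cultures of passage 16. The number of all genes called moved as well. Between untreated lines it was 419 in the main fit, 234 under the filter of 10 reads and 268 to 537 with a library left out. With WA it was 428, 222 and 264 to 649. For WA, 1 member (MAGEA1) was called in MM1R with passage as replicate block in DESeq2, and 0 to 1 with a library left out, while the edgeR block called 0. In MM1S and for the difference between lines the count was 0 under every alternative run, with and without the block, although in MM1S only 4 members held enough reads for a test. Counting any read as detection raised the detected members from 14 to 38 and lowered those on in 1 line only from 4 to 1. With a library left out these were 13 to 14 and 4 to 5.

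Signs turned only for small, uncalled differences. CTAGE7P between untreated lines was at 0.11 without untreated MM1S of passage 16 and without both cultures of that passage. With 1 library left out it ranged from -0.66 to 0.11 there, and from -0.02 to 0.42 between the WA groups. For WA in MM1R the same ranges were -0.07 (and -0.00015) to 0.32 for SSX1, -0.28 to 0.39 for MAGEA10, -0.02 to 0.26 for MAGEA12 and -0.15 (and -0.02, -0.05) to 0.47 for MAGEC3. For the difference between lines in the WA effect they were -0.02 to 0.60 for MAGEC3 and -0.14 to 0.06 (and 0.01, 0.02, 0.03, 0.05) for MAGEA1, which stood at 0.01 with 10 reads or more in every library. The cause was not tested.

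At this depth a group of 3 libraries with no read allows a level of up to 3 reads over the group, and for members with few unique windows a count of 0 says nothing. Reads were mapped to hg19 per the labels, and the gene models behind the counts were matched by symbol only.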

Other observations

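The cultures of MM1S passage 16 differed from the other MM1S cultures at cancer-testis genes outside the rule as well. TKTL1 held 573 and 632 reads in the untreated and the WA culture of passage 16, against 9 to 13 in the other 4 MM1S libraries and 1201 to 1841 in MM1R. Relative to the pooled MM1R libraries this was 38.2% at passage 16 and 0.689% at the other passages. IGF2BP3 held 35 and 26 reads at passage 16, against 105 to 139 in the other MM1S libraries and 0 to 6 in MM1R. These genes were named after their values were seen.

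SSX6P, a pseudogene, held 2 or 3 reads in 4 of the 6 MM1R libraries and in 1 of the 6 MM1S libraries, and MAGEC1 held 1 to 3 reads in 5 of the 6 MM1R libraries and 0 in all MM1S libraries. Neither passed the limit of 3 reads.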
